A study of Mus musculus with 4 samples.

Results

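The genes described here are 10 chemokine ligands of inflammation, Ccl2, Ccl3, Ccl4, Ccl6, Ccl9, Ccl24, Cxcl1, Cxcl2, Cxcl3 and Cxcl16. They were chosen by gene symbol: all probe sets that the platform annotation pairs with 1 of these symbols were taken, which gave 10 probe sets, 1 per gene, out of 19938 genes named on the array. Expression was measured on 4 Affymetrix whole-transcript arrays, 1 for each of LT-HSC CreER, LT-HSC mock, ST-HSC CreER and ST-HSC mock. The RNA came from cells of colonies grown in methylcellulose, with serum, stem cell factor, IL-3, IL-6 and GM-CSF, from long-term (LT-HSC) or short-term (ST-HSC) haematopoietic stem cells of C57BL/6 background. Transduction was with CreER, in which the recombinase Cre is joined to an oestrogen receptor domain, or with mock. The series title says that the cells conditionally express MLL-ENL, a leukaemia fusion protein. Not given in the sources used here are the conditional allele's presence in each group, any activation of CreER, and the age and number of animals. Cre activity and MLL-ENL are therefore not separated by these labels. The study's stated comparisons were CreER with mock, and cells derived from LT-HSC with those from ST-HSC, as a first screen for genes of leukaemic transformation.

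Chemokines are small secreted proteins that bind G protein-coupled receptors on leukocytes and direct their migration. CXCL1, CXCL2 and CXCL3 act through CXCR2 and draw neutrophils, CCL2 acts through CCR2 and draws monocytes, and CCL24 acts through CCR3 and draws eosinophils. CCL3, CCL6 and CCL9 act through CCR1. CXCL16 is unusual in being made as a transmembrane protein, which binds CXCR6 and oxidised lipoprotein. Macrophages, mast cells, basophils and neutrophils all make some of these ligands, and transcription of several is induced through NF-kappaB, a family of factors that bind DNA sites called kappaB sites.

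Each group held 1 array, so a difference between 2 arrays has no error estimate and no p-value below, and so small a number of arrays bounds what can be measured. Levels are the deposited log2 values, with array medians of 7.75 to 7.82 and array maxima of 14.74 to 14.82. A signal floor was set on each array at the median of its probe sets with 1 gene symbol, 8.07 to 8.13. Levels are compared between arrays within a gene and not between genes. The LT-HSC mock and ST-HSC mock arrays each enter 2 of the 4 pairwise differences, as do the CreER arrays, so those differences are not separate observations. Markers of T, NK and B cells were under the floor on all 4 arrays (8 of 8 measured), whereas 15 of 15 neutrophil markers and 13 to 16 of 16 monocyte and macrophage markers were above it on each array.

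The promoters of Cxcl1, Cxcl2 and Cxcl3 are printed because these 3 neighbouring genes were all higher in LT-HSC-derived than in ST-HSC-derived cells. Those of Ccl3, Ccl6 and Ccl9 are printed because each gene varied little over the 4 arrays, with ranges of 0.30, 0.13 and 0.57. Promoter windows of 300 bases, 250 before and 50 after the start site, were found for 6 of the 10 ligands in the RefSeq table of build GRCm38.p6, and Ccl2, Ccl4, Ccl24 and Cxcl16 are named only. The 130 bases before the start site are shown 5′ to 3′ on the coding strand. Capitals mark the kappaB motif GGGAATTTCC and the TATA-like motif ATAAAAGG.
Cxcl1: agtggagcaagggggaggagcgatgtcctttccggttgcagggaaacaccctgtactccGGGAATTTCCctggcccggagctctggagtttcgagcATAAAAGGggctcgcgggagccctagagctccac
Cxcl2: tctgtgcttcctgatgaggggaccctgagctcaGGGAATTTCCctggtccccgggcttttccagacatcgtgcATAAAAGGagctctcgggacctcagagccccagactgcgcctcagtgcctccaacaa
Cxcl3: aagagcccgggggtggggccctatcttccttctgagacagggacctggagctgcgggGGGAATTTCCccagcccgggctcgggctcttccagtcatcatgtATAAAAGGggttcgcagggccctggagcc
Ccl9: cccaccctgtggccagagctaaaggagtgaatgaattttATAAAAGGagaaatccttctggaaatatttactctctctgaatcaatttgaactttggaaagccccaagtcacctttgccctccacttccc
Ccl6: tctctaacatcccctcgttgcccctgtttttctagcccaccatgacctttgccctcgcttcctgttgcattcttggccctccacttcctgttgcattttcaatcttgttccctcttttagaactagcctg
Ccl3: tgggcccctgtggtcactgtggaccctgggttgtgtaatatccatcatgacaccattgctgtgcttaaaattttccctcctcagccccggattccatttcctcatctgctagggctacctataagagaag
These stretches lie at chr5:90891115-90891244, chr5:90903769-90903898 and chr5:90785971-90786100 on the plus strand for the Cxcl genes, and at chr11:83578637-83578766, chr11:83593088-83593217 and chr11:83649379-83649508 on the minus strand for the Ccl genes.

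The motif GGGAATTTCC stood at bases -71 to -62 of Cxcl1, -97 to -88 of Cxcl2 and -73 to -64 of Cxcl3, counted from the start site. Searched on both strands, it was in 29 of 32851 promoter windows of all genes (0.0883%). In the 250 bases before the start, the longest run that the 3 Cxcl promoters share was 11 bases, gggaatttccc, which holds the motif and 1 further base. The motif was taken as the first 10 bases of that run, so its presence in these 3 promoters follows from how it was chosen. Cxcl1 and Cxcl2 share 14 bases there, gggaatttccctgg. The TATA-like motif began at -34 in Cxcl1, -57 in Cxcl2, -29 in Cxcl3 and -91 in Ccl9, and was in 1.76% of all windows on either strand. The looser kappaB motif GGNNTTTCC, which lies within GGGAATTTCC wherever that occurs, was in Ccl9, Cxcl1, Cxcl2 and Cxcl3 and in 5.82% of all windows on either strand. Cxcl1 and Cxcl2 each held a further match to it, at -89 to -81 on the minus strand of Cxcl1 and at -77 to -69 of Cxcl2. An AP-1 motif, TGANTCA, was in Ccl9 (7.81% of all windows), and the C/EBP motif TTGCNNAA was in 0 of the 6 windows (10.8% of all windows). The motifs were chosen with the sequences and the expression values in view, and a match shows letters only.

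**Figure D1:**
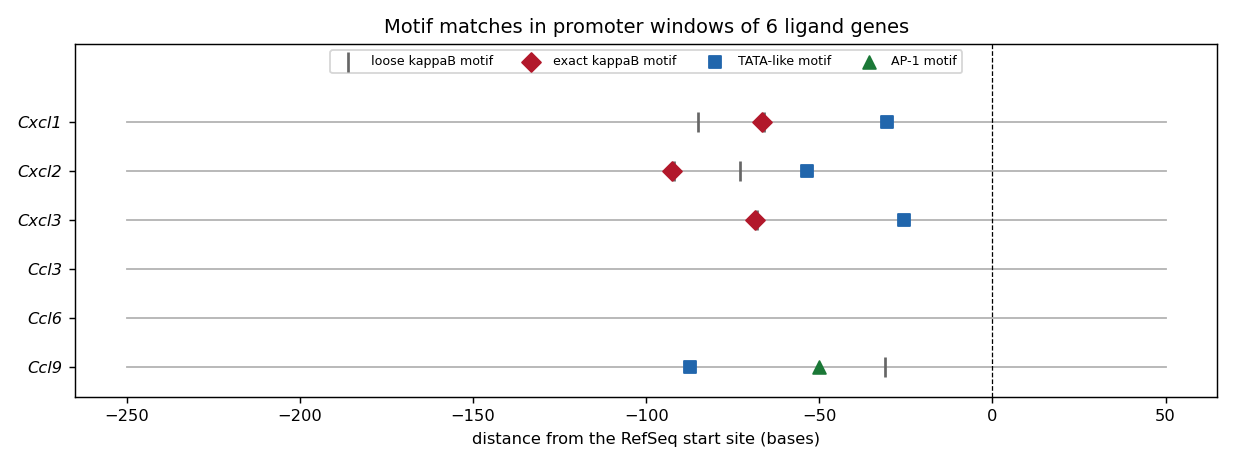
Motif matches on either strand in the 300-base promoter windows of 6 ligand genes, plotted by distance in bases from the RefSeq start site at 0. Red diamonds mark the exact 10-base kappaB motif, which Cxcl1, Cxcl2 and Cxcl3 hold between bases -97 and -62, blue squares the TATA-like motif, green triangles the AP-1 motif, and grey bars the looser 9-base kappaB motif.

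The neutrophil attractants Cxcl1, Cxcl2 and Cxcl3 and the eosinophil attractant Ccl24 were expressed more strongly in LT-HSC-derived than in ST-HSC-derived cells with both transductions. Cxcl2, known as MIP-2, had a log2 level of 13.09 on LT-HSC CreER and 12.99 on LT-HSC mock, against 10.75 on ST-HSC CreER and 10.96 on ST-HSC mock. Its LT-HSC minus ST-HSC difference was 2.34 with CreER, which is 5.06-fold, and 2.03 with mock, which is 4.10-fold. Both LT-HSC arrays stood above both ST-HSC arrays, and within a population the CreER and mock levels lay within 0.21 of each other. In whole colonies, fewer cells of a type and less RNA per cell cannot be told apart.

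Cxcl3, a close relative of Cxcl2, was at 10.14 on LT-HSC CreER and 10.51 on LT-HSC mock, against 8.26 on ST-HSC CreER and 8.18 on ST-HSC mock. It was higher in LT-HSC-derived cells by 1.89 with CreER and by 2.33 with mock, 3.70-fold and 5.02-fold. Its levels on the ST-HSC arrays lay just above the floors of 8.07 and 8.08. Cxcl1, known as KC, was at 9.36 on LT-HSC CreER and 9.26 on LT-HSC mock, against 7.81 on ST-HSC CreER and 8.04 on ST-HSC mock. Both ST-HSC levels were under the floor, so the size of its difference, 1.55 with CreER and 1.22 with mock, is uncertain. For all 3 genes the LT-HSC and ST-HSC levels did not overlap, and the share of all genes for which this holds was not counted.

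Ccl24, which encodes eotaxin-2, was at 8.36 on LT-HSC CreER and 9.44 on LT-HSC mock, against 7.07 on ST-HSC CreER and 7.27 on ST-HSC mock. Both ST-HSC levels were under the floor, so the size of the LT-HSC minus ST-HSC difference, 1.29 with CreER and 2.17 with mock, is uncertain. The highest of its 4 levels was that of LT-HSC mock.

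**Figure D2:**
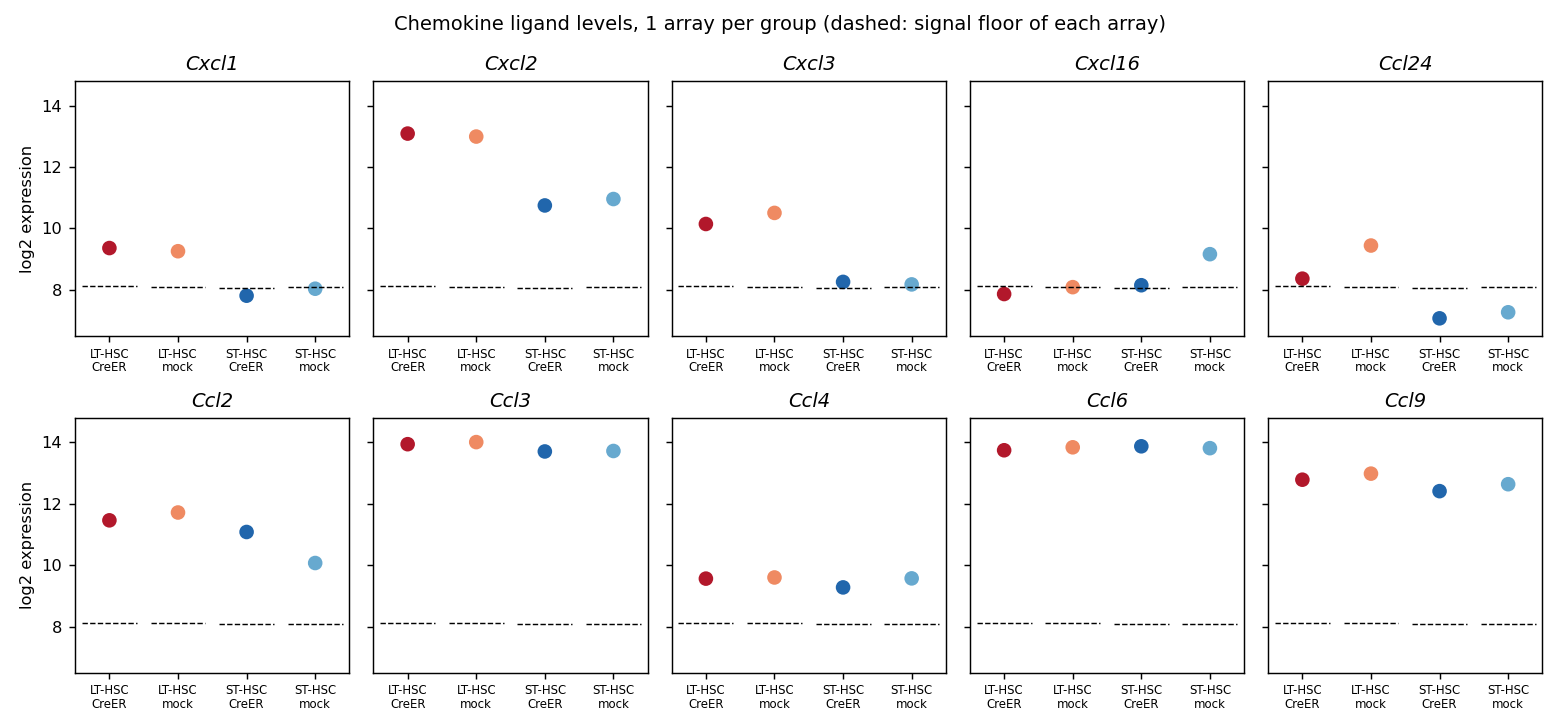
Log2 expression of each of the 10 chemokine ligands on the 4 arrays, in the order LT-HSC CreER, LT-HSC mock, ST-HSC CreER and ST-HSC mock, 1 point per array, with short dashed lines at the signal floor of each array. Cxcl1, Cxcl2, Cxcl3 and Ccl24 are higher on both LT-HSC arrays than on both ST-HSC arrays, Cxcl16 is highest on ST-HSC mock, Ccl2 is lowest on ST-HSC mock, and Ccl3, Ccl4, Ccl6 and Ccl9 range over less than 0.6.

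The monocyte attractant Ccl2 stood apart on 1 array. Its level was 11.46 on LT-HSC CreER, 11.71 on LT-HSC mock, 11.08 on ST-HSC CreER and 10.07 on ST-HSC mock. The LT-HSC minus ST-HSC difference was therefore 0.38 with CreER and 1.64 with mock. Cxcl16 was highest on the array where Ccl2 was lowest, with 7.86 on LT-HSC CreER, 8.09 on LT-HSC mock, 8.15 on ST-HSC CreER and 9.16 on ST-HSC mock. Its LT-HSC minus ST-HSC difference was -0.29 with CreER and -1.07 with mock. Both LT-HSC levels of Cxcl16 were under the floor and that on ST-HSC CreER was just above it, so the size of its difference is uncertain.

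The macrophage inflammatory protein genes Ccl3 and Ccl4 and the mouse CCR1 ligands Ccl6 and Ccl9 differed little between the arrays. Ccl3 was at 13.94 on LT-HSC CreER and 14.01 on LT-HSC mock, against 13.70 on ST-HSC CreER and 13.72 on ST-HSC mock. Ccl4 was at 9.56 and 9.60 on LT-HSC CreER and LT-HSC mock, and at 9.27 and 9.57 on ST-HSC CreER and ST-HSC mock. Ccl6 was at 13.74 and 13.84 on LT-HSC CreER and LT-HSC mock, and at 13.87 and 13.81 on ST-HSC CreER and ST-HSC mock. The levels of Ccl3 and Ccl6 were not far below the array maxima, and compression of differences there was not tested. Ccl9 was at 12.78 and 12.98 on LT-HSC CreER and LT-HSC mock, and at 12.41 and 12.64 on ST-HSC CreER and ST-HSC mock. The range over the 4 arrays was 0.30 for Ccl3, 0.32 for Ccl4, 0.13 for Ccl6 and 0.57 for Ccl9, against 2.34 for Cxcl2. For Ccl3 and Ccl9 both LT-HSC arrays were above both ST-HSC arrays, whereas the groups overlapped for Ccl4 and Ccl6. The share of all genes with such separation was not counted, and neither Ccl3 nor Ccl9 passed in the fit below.

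A gene was counted as different between 2 arrays when it differed at least 2-fold and stood above the floor on the higher array. Between LT-HSC and ST-HSC with mock, 6 of the 10 ligands met this rule, where 3.12% of 10208 genes did. Of these, 5 were higher in LT-HSC-derived cells (Ccl2, Ccl24, Cxcl1, Cxcl2 and Cxcl3), against 2.72% of all genes, and Cxcl16 was lower, against 0.402%. With CreER, 4 ligands met it (Ccl24, Cxcl1, Cxcl2 and Cxcl3), where 1.94% of 10189 genes did and 1.39% were higher. The median difference over the 10 ligands was 0.38 with CreER and 0.78 with mock, against -0.02 and -0.03 over all genes past the floor. The ligands were chosen with results of these arrays known, so these shares describe the list and are no test of it.

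**Figure D3:**
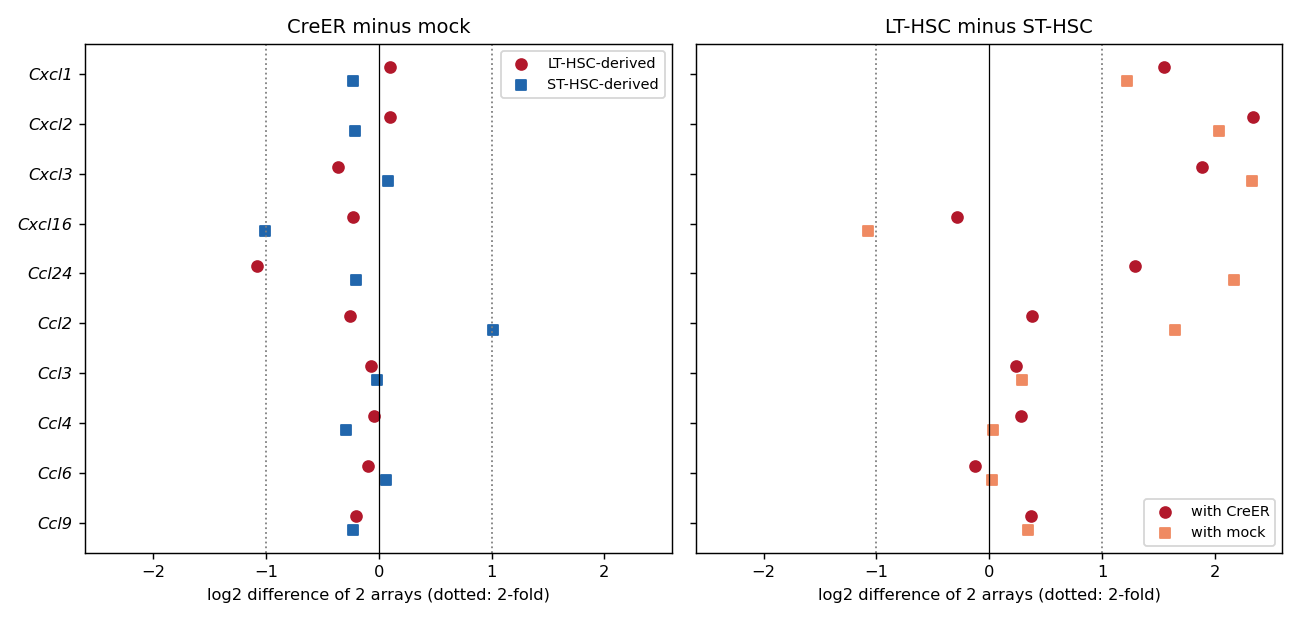
Log2 differences of 2 arrays for the 10 ligands, CreER minus mock at left (red circles LT-HSC-derived, blue squares ST-HSC-derived) and LT-HSC minus ST-HSC at right (red circles with CreER, orange squares with mock), with dotted lines at 2-fold. At right, Cxcl1, Cxcl2, Cxcl3 and Ccl24 lie past 2-fold with both transductions, and at left only Ccl24, Ccl2 and Cxcl16 reach it, each in 1 population.

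A fit with population and transduction as additive terms gave the comparison with an error estimate that the 4 arrays allow, without replicates of any group. It sets 2 LT-HSC arrays against 2 ST-HSC arrays, with 1 residual degree of freedom per gene, and was fitted with limma over 10411 genes that 1 or more arrays put above the floor. Cxcl2 rose by 2.19 ± 0.11 (SE, 2 arrays a side) in LT-HSC-derived relative to ST-HSC-derived cells, with a limma adjusted p of 0.00421. Cxcl3 rose by 2.11 ± 0.13 with a limma adjusted p of 0.00421, Cxcl1 by 1.39 ± 0.12 with 0.00761, and Ccl24 by 1.73 ± 0.21 with 0.0180. These 4 of 10 ligands passed the threshold of 0.05, where 6.27% of all genes did and 3.78% rose. Cxcl1 and Ccl24 entered the fit only through the LT-HSC arrays, since both of their ST-HSC levels were under the floor, so the sizes of their effects are uncertain and their SE does not cover this.

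The population effect of Ccl2 was 1.01 ± 0.29 with a limma adjusted p of 0.110, and that of Cxcl16 was -0.68 ± 0.19 with 0.109, so neither passed. In both genes the mock and CreER differences were unequal, which the additive model counts as error. Ccl9 had an effect of 0.36 ± 0.09 and a limma adjusted p of 0.0879, Ccl3 one of 0.26 ± 0.09 and 0.161, Ccl4 one of 0.16 ± 0.11 and 0.419, and Ccl6 one of -0.05 ± 0.10 and 0.788. Nothing in the labels says that the arrays came from separate animals or cultures. The error behind these p-values is each gene's departure from additivity, with 1 degree of freedom. limma pools it with a prior of 4.27 degrees of freedom taken from all genes fitted. No spread between replicate arrays of a group enters these p-values, and the spread that does enter may be technical.

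**Figure D4:**
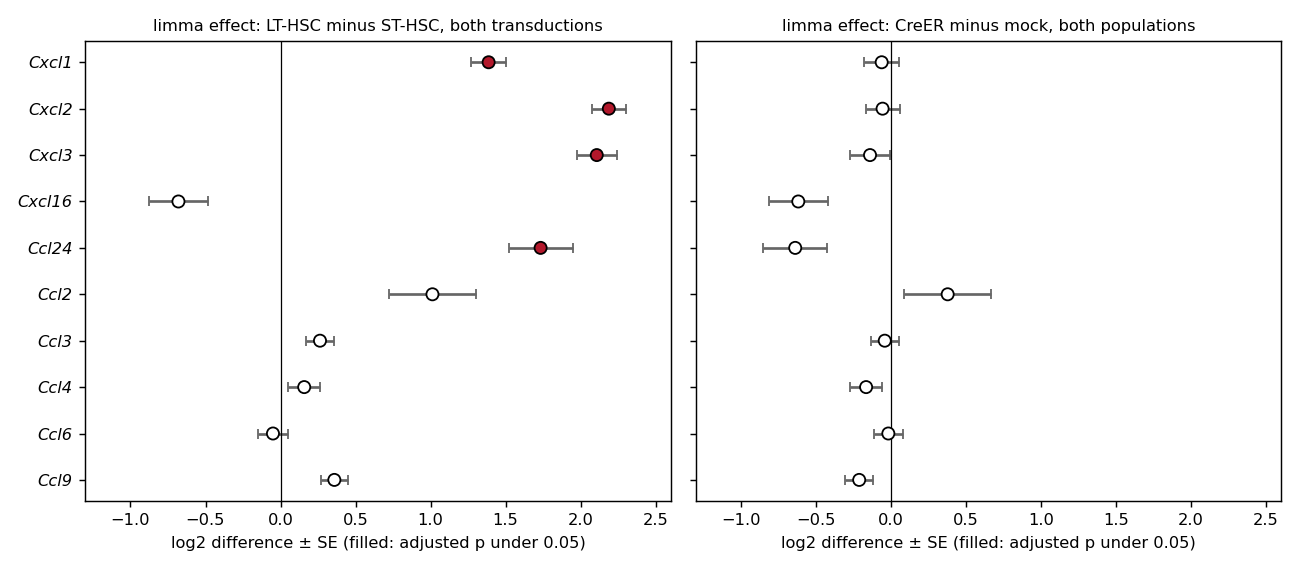
Effects of population (left, LT-HSC minus ST-HSC) and transduction (right, CreER minus mock) on the log2 level of each ligand, from the additive limma fit to 4 arrays, with bars of ± 1 SE. Filled points passed an adjusted p of 0.05, which Cxcl1, Cxcl2, Cxcl3 and Ccl24 did for population and no ligand did for transduction.

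Between CreER and mock, Ccl24, Ccl2 and Cxcl16 met the 2-fold rule, each in 1 population. In LT-HSC-derived cells only Ccl24 met the 2-fold rule (1 of 10, where 0.875% of 10172 genes did and 0.767% were lower), at 8.36 with CreER against 9.44 with mock, 2.11-fold lower. Cxcl3 differed by -0.36, Ccl2 by -0.25, Cxcl16 by -0.22 and Ccl9 by -0.20 in these cells, and the other 5 ligands by no more than 0.10 either way. In ST-HSC-derived cells 2 of 10 met it, where 0.518% of 10047 genes did, 0.438% higher and 0.0796% lower. Ccl2 was at 11.08 with CreER against 10.07 with mock, 2.01-fold higher, and Cxcl16 at 8.15 with CreER against 9.16 with mock, 2.02-fold lower. Both were only just past the 2-fold threshold. The remaining ST-HSC differences lay between -0.29 for Ccl4 and 0.08 for Cxcl3.

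In the additive fit, 0 of 10 ligands passed for CreER against mock in limma (2 at an unadjusted p under 0.05), as did 0 of all 10411 genes (0.0%), although 10.1% of genes had an unadjusted p under 0.05. Among the ligands Cxcl16 (effect -0.62 ± 0.19, unadjusted p 0.0230) and Ccl24 (effect -0.64 ± 0.21, unadjusted p 0.0283) were in that range, with limma adjusted p-values of 0.415 and 0.437. The effects on the 3 neutrophil attractants were small, at -0.06 ± 0.12 for Cxcl1, -0.06 ± 0.11 for Cxcl2 and -0.14 ± 0.13 for Cxcl3 (SE, 2 arrays a side). For Ccl2 the effect was 0.38 ± 0.29, with opposite signs in the populations.

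Several of these ligand genes lie in clusters with other ligand genes. In the mouse chromosome 5 cluster that holds Cxcl1, Cxcl2 and Cxcl3, the order is Cxcl5, Ppbp, Pf4, Cxcl3, Cxcl15, Cxcl1 and Cxcl2. Of these 7 genes, 5 were at least 2-fold higher in LT-HSC-derived cells with both transductions, and Cxcl5 and Cxcl15 were under the floor on all 4 arrays. Over all genes, 1.39% met the rule as higher with CreER and 2.72% with mock. Ppbp, the platelet basic protein whose product is another CXCR2 ligand, was at 12.52 on LT-HSC CreER and 12.17 on LT-HSC mock, against 10.23 on ST-HSC CreER and 8.88 on ST-HSC mock. Pf4, platelet factor 4, was at 11.51 on LT-HSC CreER and 11.14 on LT-HSC mock, against 10.11 on ST-HSC CreER and 10.06 on ST-HSC mock. Their population effects were 2.79 ± 0.24 for Ppbp and 1.24 ± 0.12 for Pf4, with limma adjusted p-values of 0.00761 and 0.00920.

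On chromosome 11, Ccl7, which encodes a further CCR2 ligand, is the next protein-coding gene to Ccl2 and had the same order of levels. It was at 9.70 on LT-HSC CreER, 10.54 on LT-HSC mock, 9.51 on ST-HSC CreER and 8.47 on ST-HSC mock. In ST-HSC-derived cells Ccl7 was higher by 1.04 with CreER, beside 1.01 for Ccl2, and the LT-HSC minus ST-HSC difference with mock was 2.07, beside 1.64. The other 4 genes of that cluster, Ccl11, Ccl12, Ccl8 and Ccl1, were under the floor on all 4 arrays. A second cluster on the chromosome, in the order Ccl5, Ccl9, Ccl6, Ccl3 and Ccl4, held the 4 ligands that differed little, with no gene at 2-fold in any of the 4 differences and Ccl5 under the floor throughout.

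**Figure D5:**
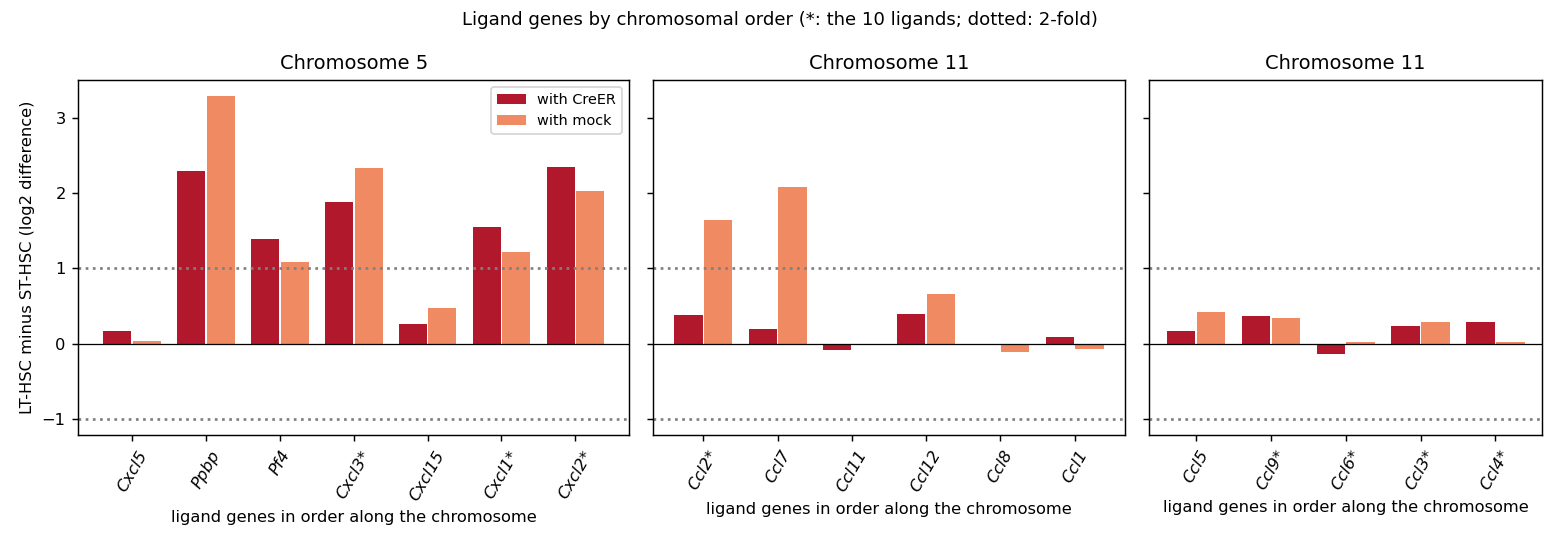
LT-HSC minus ST-HSC log2 differences of chemokine ligand genes in chromosomal order (red bars with CreER, orange bars with mock). Panels show the chromosome 5 cluster of Cxcl1, Cxcl2 and Cxcl3 (left) and 2 clusters of chromosome 11 (middle and right). Asterisks mark genes among the 10 ligands and dotted lines 2-fold. On chromosome 5, Ppbp, Pf4, Cxcl3, Cxcl1 and Cxcl2 exceed 2-fold with both transductions, Ccl2 and Ccl7 do so with mock only, and no gene of the right cluster does.

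The receptors of these ligands were also measured. Of 23 measured chemokine receptor genes, 8 were above the floor on at least 1 array. In limma 0 of these 8 passed for population, where 6.27% of all genes did, with 3 at an unadjusted p under 0.05. With 8 genes, 0 cannot be told from that share. Cxcr2, the receptor of CXCL1, CXCL2 and CXCL3 and a marker of mature neutrophils, was at 11.97 on LT-HSC CreER, 12.25 on LT-HSC mock, 12.10 on ST-HSC CreER and 10.46 on ST-HSC mock. Its low level was on 1 array, whereas its ligands were low on both ST-HSC arrays. Ccr2, the receptor of CCL2, was at 10.40 on LT-HSC CreER, 10.53 on LT-HSC mock, 10.89 on ST-HSC CreER and 11.78 on ST-HSC mock, so the array lowest for Ccl2 was the highest for Ccr2. Its population effect was -0.87 ± 0.19 with a limma adjusted p of 0.0657.

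Ccr1 was at 10.76 on LT-HSC CreER and 11.36 on LT-HSC mock, against 11.55 on ST-HSC CreER and 11.62 on ST-HSC mock. Its population effect was -0.53 ± 0.15 with a limma adjusted p of 0.104. Ccr3, Cxcr6 and the decoy receptor gene Ackr1 were under the floor on all 4 arrays. Adam10 and Adam17, which encode proteases that shed transmembrane proteins including CXCL16, differed by no more than 0.21 in any of the 4 differences.

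Other inducible inflammatory genes differed between the populations in part. Of 28 genes past the floor in a list of NF-kappaB components, its targets and inflammatory cytokines, 7 rose in LT-HSC-derived cells in limma, 0 fell and 21 did not pass. Over all genes fitted, 6.27% passed and 3.78% rose. The median effect was 0.13 over the list, against -0.02 over all genes fitted. Those that rose included Il6 (3.43 ± 0.14, limma adjusted p 0.00367), the cyclooxygenase gene Ptgs2 (2.70 ± 0.23, 0.00761), Il1b (1.49 ± 0.23, 0.0307), Il1a (1.27 ± 0.11, 0.00898) and Nfkbiz (1.49 ± 0.09, 0.00421), which encodes an atypical IkappaB protein. Tnfaip3, an inhibitor of NF-kappaB signalling, rose by 1.02 ± 0.19 with an adjusted p of 0.0445, and the other was Ier3. The ST-HSC levels of Il6, 7.86 with CreER and 8.10 with mock, lay at the floors of 8.07 and 8.08, so the size of its effect is uncertain. Nos2, the inducible nitric oxide synthase gene, went the other way with mock, at 8.12 on LT-HSC CreER and 7.27 on LT-HSC mock, against 8.12 on ST-HSC CreER and 9.56 on ST-HSC mock. Its LT-HSC minus ST-HSC difference was -2.29 with mock, where the LT-HSC level was under the floor, and its population effect of -1.15 ± 0.51 did not pass, with a limma adjusted p of 0.234. Tnf, at 12.11 on LT-HSC CreER and 11.75 on LT-HSC mock, against 11.99 on ST-HSC CreER and 11.97 on ST-HSC mock, had an effect of -0.05 ± 0.12.

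The same 10 bases are in the promoters of other genes. Of the 29 genes with GGGAATTTCC in their promoter window, 21 were measured, and 18 of these were not among the ligands. Of the 18, 9 were above the floor on at least 1 array. In limma 0 of these 9 passed for population at an adjusted p of 0.05, where 6.27% of all genes did, with 1 at an unadjusted p under 0.05. In each of the 4 differences 0 met the 2-fold rule, where 0.518% to 3.12% of all genes did. At such shares 9 genes are too few to tell these counts from those of all genes. Nfkbia, which encodes the NF-kappaB inhibitor IkappaBalpha and holds the motif, had a population effect of 0.36 with a limma adjusted p of 0.148.

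Mean levels of the markers of some cell types were higher on both LT-HSC arrays than on both ST-HSC arrays. The mean log2 level of 15 mast cell and basophil markers was 9.88 on LT-HSC CreER and 10.31 on LT-HSC mock, against 8.87 on ST-HSC CreER and 8.40 on ST-HSC mock. In limma 7 of the 12 past the floor rose, where 3.78% of all genes did. Of these 7, Cd200r3 and Il4 were under the floor on both ST-HSC arrays, so they entered the fit only through the LT-HSC arrays. The mean of 7 measured megakaryocyte markers, which include Pf4 and Ppbp, was 10.64 and 10.61 on LT-HSC CreER and LT-HSC mock. On ST-HSC CreER and ST-HSC mock it was 9.57 and 9.10. In limma 4 of these 7 rose, including Pf4 and Ppbp, where 3.78% of all genes did. The defining marker Itga2b rose by 1.92 ± 0.14, with a limma adjusted p of 0.00574, whereas Vwf, Treml1 and F2rl2 did not pass. The mean of 7 measured eosinophil markers was 10.18 and 10.02 on LT-HSC CreER and LT-HSC mock, against 9.79 and 9.03 on ST-HSC CreER and ST-HSC mock. In limma 1 of the 5 eosinophil markers past the floor rose. With mock 3 of the 5 were at least 2-fold higher in LT-HSC-derived cells (2.72% of all genes), and with CreER 0 were (1.39%). Cpa3, a mast cell carboxypeptidase and defining marker, was at 13.09 on LT-HSC CreER and 13.54 on LT-HSC mock, against 12.31 on ST-HSC CreER and 11.15 on ST-HSC mock. Its population effect of 1.58 ± 0.36 did not pass, with a limma adjusted p of 0.0716. Nor did that of the other defining marker, Fcer1a, at 1.63 ± 0.51 with a limma adjusted p of 0.13. The part of these markers in the levels of Cxcl1, Cxcl2, Cxcl3 and Ccl24 was not tested.

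The mean of 16 measured monocyte and macrophage markers was 10.31 on LT-HSC CreER and 11.10 on LT-HSC mock, against 10.92 on ST-HSC CreER and 11.26 on ST-HSC mock. This mean was thus lowest on LT-HSC CreER and highest on ST-HSC mock. Cxcl16 was also lowest and highest on these arrays, although both of its LT-HSC levels were under the floor. Ccl24 was lower on LT-HSC CreER than on LT-HSC mock. On ST-HSC mock, where the marker mean was highest, Ccl24 was under the floor at 7.27. In LT-HSC-derived cells 14 of the 16 markers were lower with CreER, 7 of them at least 2-fold, where 0.767% of all genes were. In ST-HSC-derived cells 15 of 16 were lower, 1 at least 2-fold, where 0.0796% of all genes were. Over all genes past the floor, CreER was the lower side for 5655 of 10172 genes in LT-HSC-derived cells, and for 5768 of 10047 in ST-HSC-derived cells. For 15 neutrophil markers the mean was 13.01 and 12.85 on LT-HSC CreER and LT-HSC mock, against 13.35 and 12.79 on ST-HSC CreER and ST-HSC mock. The part of these markers in the Cxcl16, Ccl2 and Ccl24 differences was not tested.

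The genes whose pattern over the 4 arrays was most like each ligand's were found by the root mean square distance between log2 levels centred on each gene's mean. For Cxcl2 they were Timp3 (distance 0.15) and Cd226 (0.18), for Cxcl3 Cyp11a1 (0.058) and Lat (0.086), and for Cxcl1 Muc20 (0.097) and the immediate early gene Egr1 (0.098). Those most like Ccl24 were Npl (0.058) and Cd244a (0.13), and those most like Ccl2 were Myo1d (0.12) and Cd55 (0.14). For Cxcl16 the nearest was Ccr2 (0.11), followed by C9orf72 (0.16). The ligands with a small range were closest to Ddost and Tshz1 (Ccl3), Nme2 and Atp8b2 (Ccl4), Cant1 and Atp6v0b (Ccl6), and Wdr75 and Ttc27 (Ccl9), at distances of 0.015 or less. Among the ligands themselves the closest pair was Ccl3 and Ccl9 (0.0997), and Cxcl2 was closest to Cxcl3 (0.20). With 4 arrays many genes share a pattern, so these names are a description.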

How the data were processed

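RNA from colony-forming cells was amplified and biotin-labelled with whole-transcript kits and hybridised to 4 Affymetrix arrays, 1 per group, per the labels' protocols. The deposited values were read as log2 expression per probe set from their range, and were processed with Affymetrix Expression Console, per the submitters' processing notes. Not given in the sources used here are its version and the summarisation and normalization. The deposited summaries may compress differences near background and near saturation, which was not tested.

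Of 35556 probe sets, 21789 had 1 gene symbol in the platform annotation, 1621 several and 12146 none. Where a gene had several probe sets, the brightest on average stood for it. Ligands of 1 family have similar sequences, and cross-hybridisation between them was not tested. Pairwise differences were counted at 2-fold above the floor, without a test. The additive model was fitted with limma 3.58.1 (lmFit, eBayes) in R 4.3.3 and adjusted by Benjamini-Hochberg over 10411 genes, with 4.27 prior degrees of freedom. The fit was tested on simulated data. Alternatives were other normalizations, floors, thresholds, a prior trend and probe set means. The 10 ligands, the other lists, the motifs and the rule for named genes were chosen with earlier results of these data known. Named genes were the 10 ligands, their receptors and sheddases, neighbours in the clusters and the 2 genes most like each ligand. Members of the ligand, receptor, processing and inflammatory lists at 2-fold could be named as examples, and not all were. Tnf, Nfkbia, Ier3, Cpa3, Fcer1a, Cd200r3, Il4, Itga2b, Vwf, Treml1, F2rl2 and Cxcl10 were named after their values were seen.

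Gene order came from the RefSeq table of assembly GRCm38.p6, with clusters split at gaps over 500 kb. Coordinates are given for the printed promoter stretches only, from the RefSeq promoter table of that assembly, since no source used here names the build of the array annotation.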

Additional observations from a re-analysis of the deposited data

Results flagged for a closer look

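For 5 ligands the CreER minus mock difference had opposite signs in the populations, which was not tested because 4 arrays leave no residual for it. The LT-HSC-derived minus the ST-HSC-derived difference was -1.27 for Ccl2 (-0.25 and 1.01), -0.44 for Cxcl3 (-0.36 and 0.08), 0.33 for Cxcl1 (0.10 and -0.23), 0.31 for Cxcl2 (0.10 and -0.21) and -0.16 for Ccl6 (-0.10 and 0.06). For Ccl6 the LT-HSC minus ST-HSC difference also had opposite signs, -0.13 with CreER and 0.03 with mock, which is the same contrast of 4 arrays and again gives -0.16. With 1 array per group a change of sign needs no large difference, and only that of Ccl2 included a 2-fold change.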

How the results depend on the processing

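Under quantile normalization, cyclic loess normalization, median centring, no floor and the mean of all probe sets, the number of ligands past 2-fold in each of the 4 differences and past the limma threshold equalled that reported, with the same ligand names. With the floor at the 75th percentile, 0 ligands passed for CreER against mock in the LT-HSC population and 1 (Ccl2) in the ST-HSC population. Under that floor 2 (Cxcl2 and Cxcl3) passed for LT-HSC against ST-HSC with CreER, 3 (Ccl2, Cxcl2 and Cxcl3) with mock, and 2 in limma, since weaker ligands were left out. A 3-fold threshold gave 0 and 0 for CreER against mock in the LT-HSC and ST-HSC populations, and 2 with CreER and 4 with mock for LT-HSC against ST-HSC, whereas a 1.5-fold threshold left all 4 counts as reported. All 160 single differences of a ligand under the normalizations and probe set means moved by less than 0.145, the SD of a difference in limma's prior, and none that was past 2-fold reversed. Each ligand had 1 probe set, so its differences and 2-fold calls could not change under the probe set means. Over all genes, 653 passed for population, against 368 under cyclic loess, 186 with the higher floor and 1401 at an adjusted p of 0.1, where Ccl9 joined the 4 ligands. No gene passed for transduction in limma under any of these, with 1048 genes at an unadjusted p under 0.05 in the fit as reported. The limma adjusted p for population ranged over the alternatives from 0.000457 to 0.0115 for Cxcl2, 0.000518 to 0.0158 for Cxcl3, 0.00143 to 0.0183 for Cxcl1 and 0.0041 to 0.0436 for Ccl24. No paired analysis was possible because each group held 1 array, and leaving out an array leaves the additive model no residual degrees of freedom.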

Other observations

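Cxcl10, an interferon-induced ligand of CXCR3, lies on chromosome 5 in a separate cluster with Cxcl9 and Cxcl11. It was the other CXC ligand outside the cluster of Cxcl1, Cxcl2 and Cxcl3 with a level well above the floor, named after its values were seen. It was at 10.24 on LT-HSC CreER and 10.05 on LT-HSC mock, against 9.94 on ST-HSC CreER and 10.19 on ST-HSC mock, so its 4 levels overlapped between the populations. Of 26 measured chemokine ligand genes outside the 10, 6 were above the floor on at least 1 array. Ppbp and Pf4 were the 2 that passed for population in limma, where 6.27% of all genes did.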
